A study of Mus musculus with 22 samples.

Results

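The comparison described here set mouse embryonic stem (ES) cells that lack the DNA methyltransferases Dnmt1, Dnmt3a and Dnmt3b (TKO) against wild-type (WT) R1 ES cells, both after siRNA knock-down of the 3 HP1 proteins, and asked which alternative exons were included at different levels. Skipped-exon events were taken when each of the 2 triple knock-down libraries held at least 20 reads that tell inclusion from skipping, and 4473 events of the 10873 in the series met that rule. These events cover 4304 distinct exons, and 2631 genes can be assigned to them by position. In the TKO cells the siRNAs against HP1alpha, HP1beta and HP1gamma were used at 80, 80 and 120 nM, and in the WT cells at 60, 60 and 60 nM, in each case for 48 h. The TKO line came from an earlier published study and the R1 line from a cell repository, so methyltransferase genotype, cell line and siRNA dose cannot be told apart in any difference below. Cells of both lines were grown with LIF on gelatin without feeder cells. RNA of 2 cultures per group was sequenced as 101-base read pairs, and the deposited file of each group pools its 2 cultures. Every test below therefore compares 2 pooled libraries with counting error only, and not replicated conditions. No library of cells given a control siRNA was analysed here.

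HP1 proteins (Cbx5 encodes HP1alpha, Cbx1 HP1beta and Cbx3 HP1gamma) bind histone H3 methylated at lysine 9 and are a core part of heterochromatin. In mammals DNA methylation is set by Dnmt3a and Dnmt3b and copied at replication by Dnmt1, and ES cells survive without all 3 enzymes. An alternative (cassette) exon is either joined into the mature mRNA or spliced out with its flanking introns, and its inclusion level is the share of the transcripts that carry it. MISO, the program behind the deposited values, estimates that level from reads and corrects for the larger number of reads a longer exon collects, so a level can lie well below the share of inclusion reads.

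The libraries were checked on the genes they target. Reads over listed events were scaled to 1000000 event reads of the library (RPM). The event of Dnmt3a (chr12:3896578-3896685, build mm10) had 26.4 RPM in TKO cells and 105 RPM in WT cells, a ratio of 0.252 (95% interval 0.212 to 0.297). The event of Dnmt3b (chr2:153670849-153670908) had 79.6 RPM in TKO cells and 229 RPM in WT cells, a ratio of 0.348 (0.315 to 0.385). Both methyltransferase genes were thus read less in the TKO library, and neither was at 0. Dnmt1 has no listed event, and whether the read exons lie in the deleted parts of the genes was not looked up here. The event of Cbx1 (chr11:96806616-96806764) had 1000 RPM in TKO cells and 551 RPM in WT cells, a ratio of 1.82 (1.74 to 1.90). Among the WT cells given a single siRNA at 90 nM, the Cbx1 event had 507 RPM under HP1beta knock-down, 1520 RPM under HP1alpha knock-down and 1620 RPM under HP1gamma knock-down. The TKO library therefore lay between the WT knock-down libraries with and without an HP1beta siRNA. It also lay above untransfected cells, sequenced as 50-base single reads, where the event had 659 RPM in TKO and 615 RPM in WT. Cbx3 (35.1 RPM in TKO, 36.1 RPM in WT; ratio 0.972, 0.799 to 1.19) and Cbx5 (50.5 and 56.2 RPM; ratio 0.897, 0.765 to 1.05) had intervals that include equal levels. The part of the unequal Cbx1 reads in the splicing differences was not tested.

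Of 15 ES cell marker genes, 6 had an event in both libraries, and their summed reads came to 3586 RPM in TKO cells and 4756 RPM in WT cells; the other 9, Pou5f1, Sox2 and Nanog among them, have no listed event. These 6 went both ways: Klf4 (256 RPM in TKO, 516 RPM in WT; ratio 0.495, 0.466 to 0.526), Sall4 (507 and 983 RPM; ratio 0.515, 0.494 to 0.538), L1td1 (ratio 0.737) and Tdh (0.924) were read less in TKO cells, and Zfp42 (1.09) and Tcl1 (1.13) more. Markers of fibroblasts or feeder cells (0 of 10), trophoblast (0 of 7) and germ cells (0 of 5) had no listed event in either library. Sox17, 1 of 8 primitive endoderm markers, was listed in TKO only (17.7 RPM), as was Pax6, 1 of 6 neural markers (24.3 RPM). Every listed event has at least 100 reads, so a gene that is not listed was read less than that or has no annotated event. The part of these marker reads in the splicing differences was not tested. The TKO library held 7571677 event reads and the WT library 4677236, and the tested events had a median of 114 and 80 distinguishing reads. An event reaches 100 reads only at a higher RPM in the smaller WT library, so a listing in TKO only does not by itself show a difference.

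Inclusion levels were close in the 2 libraries for most exons. The median absolute difference of level was 0.02, its 90th percentile was 0.11, and the median signed difference was 0. The level was higher in TKO cells for 2087 exons, lower for 1542 and equal to the 2 deposited decimals for 844. A difference of at least 0.1 was found for 543 exons, 303 of them higher and 240 lower in TKO cells. The reads of most of these exons could not tell such a difference from counting error. Two-sided Fisher's exact tests of the inclusion and skipping reads gave 237 exons (5.30%) with an unadjusted p of at most 0.05, and 33 exons after Benjamini-Hochberg adjustment over all 4473.

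An exon was called changed when its adjusted p was at most 0.05, its level differed by at least 0.1 and its reads pointed the same way. This gave 21 exons in 20 genes, 0.469% of those tested: 11 were included more in TKO cells (0.246%) and 10 were included less (0.224%). Their absolute differences ran from 0.1 to 0.6 with a median of 0.2, and the deposited intervals of the 2 libraries did not overlap for any of the 21; over all tested exons they did not overlap for 99, or 2.21%. The exons included more lie in Depdc1a, Tjap1, Usp1, Mtmr3, Golm2, Epb41l1, Os9, Cdk2, Fn1, Prnp and Faim, and those included less in Lmo7, Immt, Rbm27, Atp13a3, Mfge8, Adgrl1, Slk, Ehmt2 and, at both of its called exons, Hnrnpa2b1. The plot of levels by exon shows all 21.

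**Figure D1:**
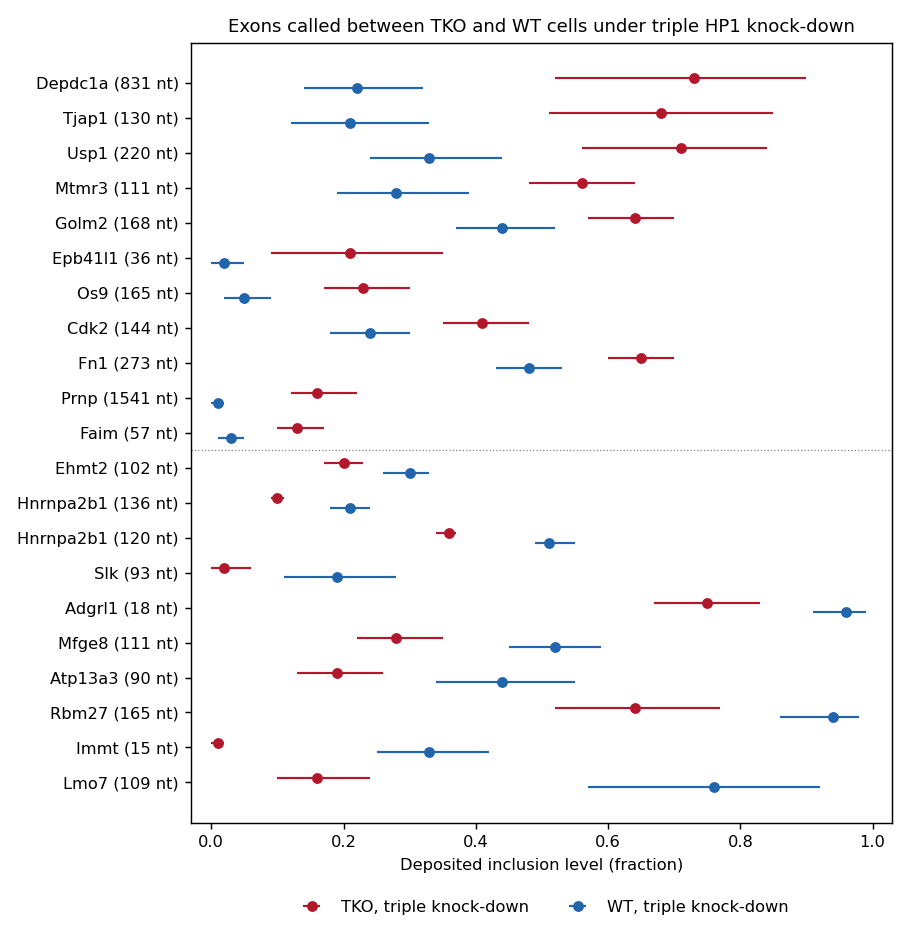
Deposited inclusion level (fraction) of the 21 called exons in TKO cells (red) and WT cells (blue), both under triple HP1 knock-down; points are the levels, bars the deposited intervals, and the dotted line parts exons higher in TKO from those lower. The widest gap is at the 109-nt exon of Lmo7, with 0.16 in TKO and 0.76 in WT.

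**Figure D2:**
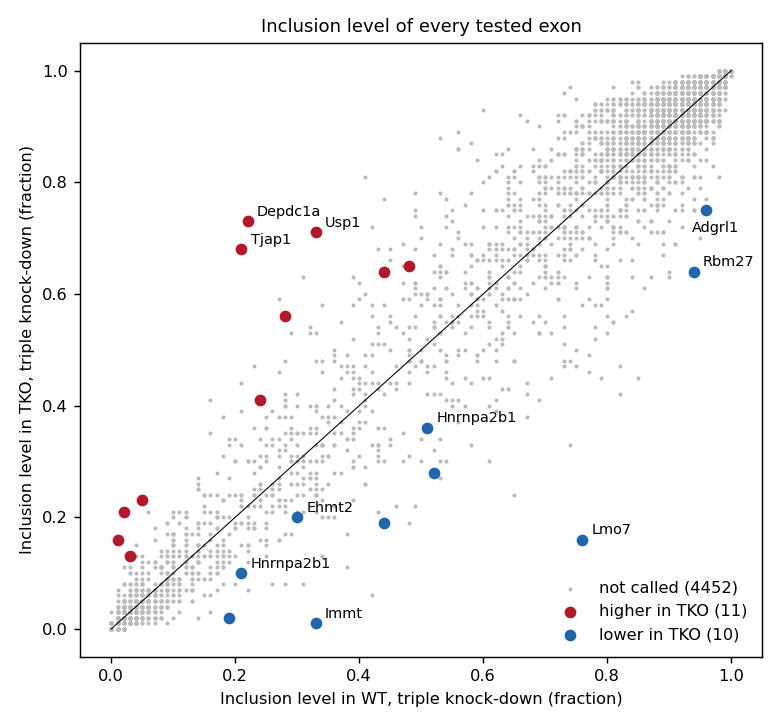
Inclusion level of all 4473 tested exons in TKO cells (vertical axis) against WT cells (horizontal axis) under triple HP1 knock-down, with the line of equal levels; red marks the 11 exons called higher and blue the 10 called lower in TKO. Most exons lie near the line, and many uncalled exons lie as far from it as called ones.

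The called exons of chromatin and RNA-binding genes lie in Ehmt2, Hnrnpa2b1 and Rbm27, and all were included less in TKO cells. They are too few to give a direction for such genes, and uncalled exons of chromatin genes went both ways, as given below. Ehmt2 encodes G9a, a histone methyltransferase that places the H3 lysine 9 methylation to which HP1 binds. Its 102-nt exon (chr17:34905610-34905711) had a level of 0.20 in TKO cells (interval 0.17 to 0.23) and 0.30 in WT cells (0.26 to 0.33). It was covered by 154 inclusion and 203 skipping reads in TKO cells, against 267 and 182 in WT cells (log2 odds ratio -0.95, 95% interval -1.35 to -0.54; Fisher's exact test, adjusted p = 0.00139). In WT cells inclusion reads outnumbered skipping reads, and in TKO cells skipping reads outnumbered inclusion reads. The event as a whole was read less in TKO cells, with 116 RPM against 232 RPM in WT cells (ratio 0.501, 0.458 to 0.549). The Ehmt2 exon had levels of 0.27, 0.29 and 0.29 in WT cells with single knock-down of HP1alpha, HP1beta and HP1gamma, so the TKO level lay below all 4 WT knock-down libraries. Of the 3 other tested Ehmt2 events, none was called, and their differences were between -0.05 and 0.

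Hnrnpa2b1 encodes the RNA-binding proteins hnRNP A2 and B1, which regulate splicing and RNA transport, and it gave the calls with the most reads. Its 120-nt exon (chr6:51464428-51464547) had a level of 0.36 in TKO cells (0.34 to 0.37) and 0.51 in WT cells (0.49 to 0.55). The reads behind it were 3676 for inclusion and 1055 for skipping in TKO cells, against 2119 and 306 in WT cells (log2 odds ratio -0.99, -1.19 to -0.79; Fisher's exact test, adjusted p = 5.85e-21). Its 136-nt exon (chr6:51461920-51462055) had a level of 0.10 in TKO cells (0.09 to 0.11) and 0.21 in WT cells (0.18 to 0.24). There 425 inclusion and 1441 skipping reads in TKO cells stood against 191 and 271 in WT cells (log2 odds ratio -1.26, -1.57 to -0.95; Fisher's exact test, adjusted p = 4.6e-12). Both exons were skipped more often in the TKO library, and both levels lay below those of all 4 WT knock-down libraries, which were 0.51 to 0.57 for the 120-nt exon and 0.18 to 0.21 for the 136-nt exon. The 2 exons belong to the same gene and share transcripts, so they are not independent observations. Reads of the 120-nt event came to 2580 RPM in TKO cells and 2080 RPM in WT cells. Reads that could also come from near-identical copies of the gene cannot be separated in the deposited counts.

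Rbm27 encodes an RNA-binding protein. Its 165-nt exon (chr18:42313971-42314135) had a level of 0.64 in TKO cells (0.52 to 0.77) and 0.94 in WT cells (0.86 to 0.98). In TKO cells 84 reads showed inclusion and 13 skipping, against 81 and 0 in WT cells (Fisher's exact test, adjusted p = 0.0394). The 0 of 81 skipping reads in WT cells allow a skipped share of up to 3.70% of the reads. The Rbm27 exon had levels of 0.71, 0.76 and 0.69 in the WT libraries with single knock-down, which are nearer to the TKO level than to that of WT cells with triple knock-down.

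The genes of the cytoskeleton, adhesion and cell polarity gave calls in both directions. Of 137 tested exons in 66 genes of this list, 3 were included more in TKO cells (Fn1, Epb41l1, Tjap1) and 3 less (Lmo7, Mfge8, Slk), or 4.38% against 0.469% of all tested exons. The median absolute difference in the list was 0.02, the same as over all exons. An unadjusted p of at most 0.05 by Fisher's exact test was found for 20 of the 137 (14.6%), against 5.30% of all tested exons. Since the lists were chosen with results of these data known, these shares describe them and are no independent evidence.

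Lmo7, a LIM domain protein of adherens junctions, had the widest difference of the 21. Its 109-nt exon (chr14:101931172-101931280) had a level of 0.16 in TKO cells (0.10 to 0.24) and 0.76 in WT cells (0.57 to 0.92). The reads were 18 for inclusion and 29 for skipping in TKO cells, against 53 and 3 in WT cells (log2 odds ratio -4.61, -6.38 to -2.84; Fisher's exact test, adjusted p = 1.24e-07). The Lmo7 exon was mostly skipped in the TKO triple knock-down library alone, since the other 6 libraries had levels between 0.56 and 0.76, untransfected TKO cells (0.73) included. The exon length is not a multiple of 3.

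Mfge8 encodes a secreted glycoprotein that bridges dying cells and phagocytes. Its 111-nt exon (chr7:79143278-79143388) had a level of 0.28 in TKO cells (0.22 to 0.35) and 0.52 in WT cells (0.45 to 0.59). The reads were 67 and 65 in TKO cells, against 191 and 64 in WT cells (Fisher's exact test, adjusted p = 0.000787). Reads of this event came to 63.5 RPM in TKO cells and 159 RPM in WT cells, so the transcripts were read less as well, and fewer cells with the transcript cannot be told apart from fewer transcripts per cell. Slk, a kinase that acts on the cytoskeleton, had a 93-nt exon (chr19:47627648-47627740) with a level of 0.02 in TKO cells (0 to 0.06) and 0.19 in WT cells (0.11 to 0.28). None of 29 reads in TKO cells showed inclusion, against 17 of 51 in WT cells (Fisher's exact test, adjusted p = 0.026), and 0 of 29 allows an included share of up to 10.3% of the reads.

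Fn1 encodes fibronectin, an extracellular matrix protein whose alternative exons are well known. Its 273-nt exon (chr1:71613763-71614035) has the length of the exon called extra domain B, although the annotation used here does not name it. The level was 0.65 in TKO cells (0.60 to 0.70) and 0.48 in WT cells (0.43 to 0.53). In TKO cells 607 reads showed inclusion and 78 skipping, against 476 and 127 in WT cells (log2 odds ratio 1.05, 0.61 to 1.49; Fisher's exact test, adjusted p = 0.000787). A second tested exon of Fn1, of 270 nt (chr1:71603660-71603929), was not called: its level was 0.94 in TKO cells and 0.85 in WT cells (Fisher's exact test, adjusted p = 0.399). That exon is named here after its values were seen.

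Epb41l1 encodes protein 4.1N, which ties membrane proteins to the spectrin and actin network. Its 36-nt exon (chr2:156511785-156511820) had a level of 0.21 in TKO cells (0.09 to 0.35) and 0.02 in WT cells (0 to 0.05). Inclusion was seen in 9 of 35 reads in TKO cells, against 0 of 60 in WT cells (Fisher's exact test, adjusted p = 0.0117), where 0 reads allow an included share of up to 5.00%. Tjap1, a protein of tight junctions, had a 130-nt exon (chr17:46271800-46271929) with a level of 0.68 in TKO cells (0.51 to 0.85) and 0.21 in WT cells (0.12 to 0.33). The reads were 68 and 5 in TKO cells, against 26 and 18 in WT cells (Fisher's exact test, adjusted p = 0.0038). For the Tjap1 exon the WT triple knock-down library stood apart: the 3 WT libraries with single knock-down had levels of 0.51, 0.52 and 0.71, so the TKO level lay within the range of the WT knock-down libraries.

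Among genes of DNA repair and the cell cycle, 2 of 97 tested exons were called (2.06%), both included more in TKO cells, and 1 of 82 exons of ubiquitin pathway genes was called (1.22%), also included more. Over all tested exons 0.469% were called, and 0.246% were included more. Cdk2 is the cyclin-dependent kinase that acts at entry into S phase, and rodents make a longer Cdk2 protein from an extra exon. Its 144-nt exon (chr10:128699976-128700119) had a level of 0.41 in TKO cells (0.35 to 0.48) and 0.24 in WT cells (0.18 to 0.30). The reads were 184 and 74 in TKO cells, against 74 and 68 in WT cells (log2 odds ratio 1.19, 0.58 to 1.80; Fisher's exact test, adjusted p = 0.0296). With single knock-down the WT levels of the Cdk2 exon were 0.26, 0.26 and 0.19, all below the TKO level.

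Depdc1a encodes a protein needed in mitosis. Its long exon of 831 nt (chr3:159522526-159523356) had a level of 0.73 in TKO cells (0.52 to 0.90) and 0.22 in WT cells (0.14 to 0.32). The difference rests on few skipping reads: 122 inclusion and 2 skipping reads in TKO cells stood against 74 and 14 in WT cells (Fisher's exact test, adjusted p = 0.0202). Usp1, the deubiquitinase of the repair proteins FANCD2 and PCNA, had a 220-nt exon (chr4:98926455-98926674) with a level of 0.71 in TKO cells (0.56 to 0.84) and 0.33 in WT cells (0.24 to 0.44). The reads were 50 and 6 in TKO cells, against 41 and 29 in WT cells (Fisher's exact test, adjusted p = 0.0202). A second event holds the same exon with another splice site (239 nt) and shares its skipping reads. It had a level of 0.72 in TKO cells and 0.42 in WT cells and was not called (Fisher's exact test, adjusted p = 0.14); it is named after its values were seen.

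The other called exons lie in genes of organelles, membranes and cell survival. Immt encodes Mic60, which shapes the inner membrane of mitochondria. Its microexon of 15 nt (chr6:71866726-71866740) had a level of 0.01 in TKO cells (0 to 0.02) and 0.33 in WT cells (0.25 to 0.42). None of 80 reads in TKO cells showed inclusion, which allows an included share of up to 3.75%, against 38 inclusion and 45 skipping reads in WT cells (Fisher's exact test, adjusted p = 2.29e-11). The Immt microexon had levels of 0.82, 0.28 and 0.83 in WT cells with single knock-down of HP1alpha, HP1beta and HP1gamma, so the libraries given an HP1beta siRNA were the lower ones among the 4 WT knock-down libraries. In untransfected cells the level was listed as 0 in both lines, with 0 of 109 reads in TKO cells and 0 of 69 in WT cells. Of the 4 other tested Immt events, none was called.

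Prnp encodes the prion protein. Its 1541-nt exon (chr2:131918028-131919568) had a level of 0.16 in TKO cells (0.12 to 0.22) and 0.01 in WT cells (0 to 0.02). The reads were 57 and 15 in TKO cells, against 3 and 29 in WT cells (log2 odds ratio 4.97, 3.17 to 6.76; Fisher's exact test, adjusted p = 6.28e-09). All 4 WT knock-down libraries had a level of 0.01, each with 3 or 4 inclusion reads. The exon lies in the span of the Prnp gene and of the overlapping locus record Prn.

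Os9, a lectin that hands misfolded proteins of the endoplasmic reticulum to degradation, had a 165-nt exon (chr10:127096915-127097079) with a level of 0.23 in TKO cells (0.17 to 0.30) and 0.05 in WT cells (0.02 to 0.09). It had 58 and 51 reads in TKO cells, against 6 and 34 in WT cells (Fisher's exact test, adjusted p = 0.00618). Faim, an inhibitor of Fas-driven cell death, had a 57-nt exon (chr9:98990915-98990971) with a level of 0.13 in TKO cells (0.10 to 0.17) and 0.03 in WT cells (0.01 to 0.05), from 46 and 160 reads against 3 and 79 (Fisher's exact test, adjusted p = 0.00968). These exons were minor in both libraries, and their TKO levels lay above all 4 WT knock-down libraries.

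Mtmr3, a phosphatase of membrane phosphoinositides, had a 111-nt exon (chr11:4485879-4485989) with a level of 0.56 in TKO cells (0.48 to 0.64) and 0.28 in WT cells (0.19 to 0.39), from 102 inclusion and 36 skipping reads against 21 and 27 (Fisher's exact test, adjusted p = 0.0435). Golm2, a Golgi membrane protein, had a 168-nt exon (chr2:121925561-121925728) with a level of 0.64 in TKO cells (0.57 to 0.70) and 0.44 in WT cells (0.37 to 0.52), from 183 and 62 reads against 78 and 61 (Fisher's exact test, adjusted p = 0.038). Mtmr3, Golm2 and Cdk2 were the calls that did not hold when the test was set against the median odds ratio of the 2 libraries (1.07) in place of equality, with adjusted p of 0.0718, 0.0716 and 0.0589.

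Atp13a3, a transport ATPase, had a 90-nt exon (chr16:30321806-30321895) with a level of 0.19 in TKO cells (0.13 to 0.26) and 0.44 in WT cells (0.34 to 0.55), from 27 and 47 reads against 50 and 25 (Fisher's exact test, adjusted p = 0.0414). Adgrl1, an adhesion receptor of the latrophilin family, had a microexon of 18 nt (chr8:83937916-83937933) with a level of 0.75 in TKO cells (0.67 to 0.83) and 0.96 in WT cells (0.91 to 0.99). Skipping was seen in 24 of 127 reads in TKO cells, against 1 of 74 in WT cells (Fisher's exact test, adjusted p = 0.0177). The WT library with HP1gamma knock-down had an Adgrl1 level of 0.56, below the TKO level, so this exon too stayed within the WT range.

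A further 12 exons passed the test (adjusted p of at most 0.05) with a level difference under 0.1, so that 33 exons, or 0.738%, passed it in all. Of these 12, 10 had a lower level in TKO cells, while over all tested exons 1542 were lower and 2087 higher. At least 460 nt long were 7 of the 12, the overlapping pair of Eef1d events among them, beside a median length of 117 nt over all tested exons. That limit is the length of the shortest of these 7 and was set after the lengths were seen. The share of all tested exons that reach it was not counted. The level of a long exon can lie well below its share of inclusion reads, so a difference under 0.1 is bound up with length. Ndufv3, a subunit of respiratory complex I, had a 1092-nt exon with a level of 0.05 in TKO cells and 0.13 in WT cells, from 953 and 981 reads against 907 and 343 (Fisher's exact test, adjusted p = 7.82e-36). Uqcr10, a subunit of respiratory complex III, had an 86-nt exon with a level of 0.08 in TKO cells and 0.03 in WT cells (Fisher's exact test, adjusted p = 4.51e-21). Slc7a3, a transporter of cationic amino acids, had a 158-nt exon with 0.10 in TKO cells and 0.03 in WT cells (Fisher's exact test, adjusted p = 1.62e-09). These exons were minor in both libraries. Splicing factors were among them: the 460-nt exon of the SR protein gene Srsf7 had 0.04 in TKO cells and 0.07 in WT cells, the 1360-nt exon of the U1 snRNP gene Snrnp70 had 0.04 and 0.09, and the 139-nt exon of Hnrnph1 had 0.84 and 0.93. For the 74-nt exon of Tpt1 the reads (89 and 0 in TKO cells, 248 and 140 in WT cells) pointed the other way from the level (0.07 in TKO cells, 0.11 in WT cells). The remaining exons lie in Meg3, Prrc2b, Eif4a2 and, as a pair of overlapping events, Eef1d. These 12 are named after their values were seen.

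The gene lists tied to the treatment are given beside the 0.469% of all tested exons that were called and the 5.30% with an unadjusted p of at most 0.05. Of 27 tested exons in 14 genes of HP1 and heterochromatin, 1 was called (3.70%), that of Ehmt2, and the median absolute difference was 0.03, against 0.02 over all exons. Of 11 exons in DNA methylation genes 0 were called, and 0 of them had an unadjusted p of at most 0.05. Of 96 exons in genes of chromatin modifiers and remodellers 0 were called by Fisher's exact test, while 12 (12.5%) had an unadjusted p of at most 0.05. Their level was higher in TKO cells for exons of Ing3, Brd3, Brd8, Setd5, Kdm5c and Carm1. It was lower for exons of Dot1l, Prmt1 and Ncor1, and Mtf2 had an exon in each direction. These exons are named after their values were seen. Intervals did not overlap for 3 of the 96, beside 2.21% of all tested exons. The chromatin exon with the smallest p was the 72-nt exon of Ing3, a reader subunit of a histone acetyltransferase complex, with a level of 0.97 in TKO cells (0.90 to 1) and 0.74 in WT cells (0.60 to 0.86); it is named after its values were seen. Of 85 exons in genes of hnRNP proteins and other splicing regulators 3 were called (3.53%), all lower in TKO cells, and 2 of the 3 are the exons of Hnrnpa2b1. In SR protein genes 0 of 49 exons were called, with 3 at an unadjusted p of at most 0.05, and in core spliceosome genes 0 of 42, with 4.

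In the remaining lists the exons called numbered 0 of 16 for pluripotency genes, 0 of 65 for kinase signalling genes, 0 of 5 for germline genes, 0 of 8 for lineage markers and 0 of 14 for interferon response genes. Those with an unadjusted p of at most 0.05 numbered 1, 5, 0, 0 and 0 in the same order. The median absolute differences over the 14 lists were between 0.01 and 0.03. The most-read events of 2 siRNA targets were tested and not called: Cbx1 had a level of 0.99 in TKO cells and 0.97 in WT cells, and Cbx5 0.45 and 0.39. The event of Cbx3 had too few distinguishing reads to be tested, and its listed level was 0.30 in TKO cells and 0.45 in WT cells.

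The called exons differed from the tested set in frame and level, described here without a test. Of the 11 exons included more in TKO cells 8 had a length divisible by 3, as had 8 of the 10 included less, against 45.3% of all tested exons. The median length was 165 nt for exons included more and 105.5 nt for exons included less, against 117 nt in all. Of the 85 tested microexons of at most 27 nt, 2 were called (2.35%, against 0.469% of all tested exons), both lower in TKO cells. On the X chromosome 0 of 100 tested exons were called, which is near that share of all exons. The WT level lay between 0.1 and 0.9 for 7 of the exons included more and 8 of those included less, against 42.2% of all tested exons. An exon near full inclusion or full skipping has little room to differ by 0.1 in one of the directions, so this share is bound up with the call.

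Calls were made at every read depth. Among exons with 20 to 49 distinguishing reads in the shallower library 7 of 1442 were called (0.485%), and with 50 to 99 reads 7 of 1257 (0.557%). With 100 to 199 reads 3 of 879 were called (0.341%), and with 200 or more 4 of 895 (0.447%). These shares are near the 0.469% of all tested exons. The median width of the deposited interval fell from 0.21 in the shallowest of these classes to 0.05 in the deepest. At the threshold, the 59 events with 20 reads in the shallower library had a median absolute difference of 0.03, and the 62 events with 19 reads, which were left out, 0.04. Event reads as a whole moved in both directions: of the 11 exons included more, the event was read less in TKO cells for 6 and more for 4, and of the 10 included less, for 5 and 4. For the other 2 the interval of the ratio included equal levels. The called genes held 16 other tested events, in 10 of the genes, which are by definition the events that were not called. An unadjusted p of at most 0.05 was found for 2 of them, against 5.30% of all. The 239-nt event of Usp1 is among these 2 and shares its skipping reads with the called exon.

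The 3 WT libraries with a single knock-down gave levels that the choice of exons did not use, although siRNA and dose differ. The TKO level lay above all 3 for 10 of the 21 called exons and below all 3 for 9, or 90.5%, against 41.4% of the 4464 exons read in all 3. The level of the WT triple knock-down library also lay outside the 3 single ones for 17 of the 21, against 41.1% of all. For 14 the triple knock-down libraries of the 2 lines lay on opposite sides of the single ones. The share over all exons was not counted for these opposite sides, and a call itself needs the 2 levels to lie apart. Both triple knock-down libraries helped to choose the exons, so these counts and shares describe the calls. When each single knock-down library replaced the WT triple knock-down library, 20 exons were called in each case (0.386%, 0.387% and 0.405% of those tested), and 6, 9 and 9 of them were among the 21. The TKO library is common to all these comparisons. Called against all 3 single knock-downs as well were the exons of Cdk2, Prnp, Immt and Lmo7 and the 120-nt exon of Hnrnpa2b1, while 10 of the 21 were called against none of them. Among these 10, the Ehmt2 exon passed Fisher's exact test against all 3 (adjusted p = 0.0127, 0.001 and 0.000997) with differences of -0.07, -0.09 and -0.09, just short of the 0.1 that a call needs.

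**Figure D3:**
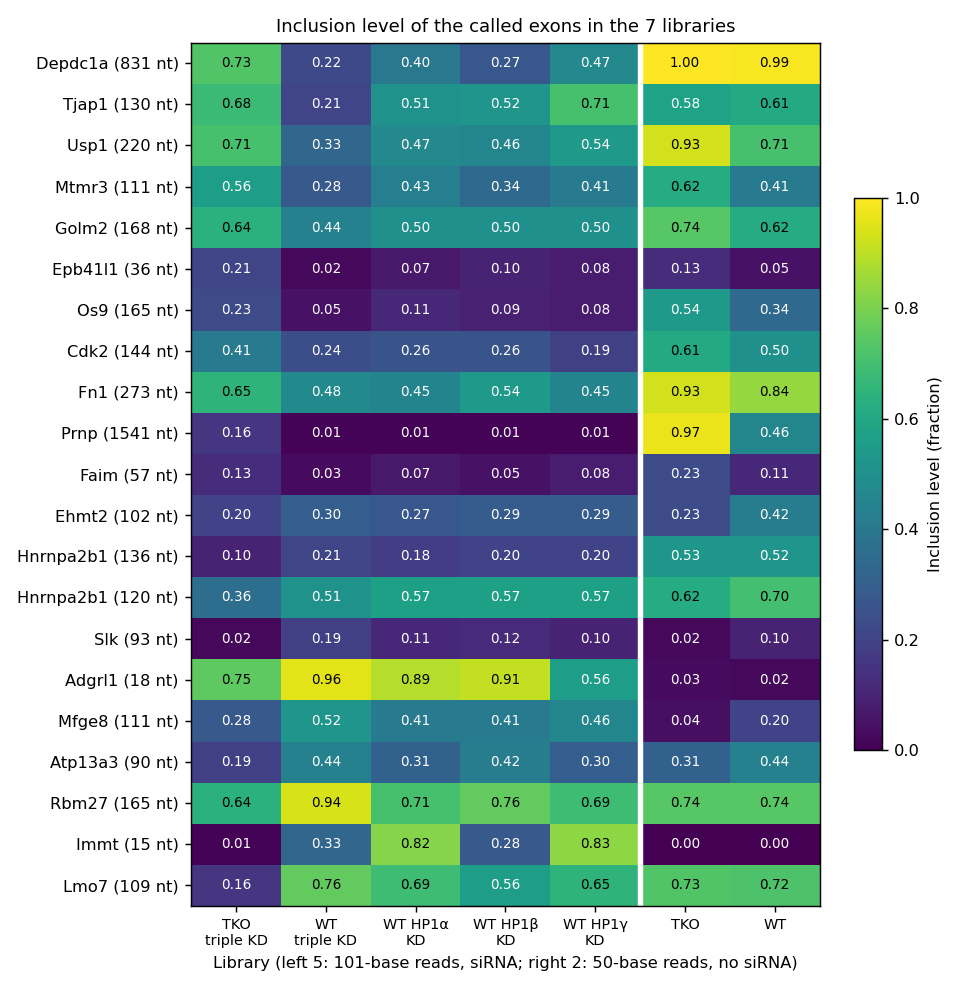
Inclusion level (fraction, colour and number) of the 21 called exons (rows) in the 7 libraries (columns), with TKO and WT cells under triple HP1 knock-down first, then WT cells with a single knock-down, and untransfected TKO and WT cells at the right. Lmo7 is low in the TKO triple knock-down column only (0.16, against 0.56 to 0.76 elsewhere), while Tjap1 stands out in the WT triple knock-down column (0.21).

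Untransfected TKO and WT cells, sequenced as 50-base single reads, give the difference between the lines without siRNA. They are other libraries than those that chose the exons, but read length, transfection and knock-down all differ between the 2 pairs and cannot be told apart. Of the 21 exons 20 could be tested there (Adgrl1 had too few reads). The difference had the same direction for 15, the opposite direction for 3 and was 0 for 2; over all exons with a difference in both pairs the direction was shared by 55.4%. Calls in the same direction were made for 7 of the 20 (Usp1, Mtmr3, Cdk2, Faim, Ehmt2, Mfge8 and Atp13a3), against 4.77% of the 4344 exons tested in both pairs. With no minimum difference, 11 of the 20 passed Fisher's exact test in the same direction, against 11.2% of all in either direction; the 4 added exons were those of Epb41l1, Fn1, Slk and the 120-nt exon of Hnrnpa2b1.

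The levels show how far the lines differed without siRNA. The Usp1 exon had 0.93 in untransfected TKO cells and 0.71 in untransfected WT cells (Fisher's exact test, adjusted p = 1.8e-11), and the Mtmr3 exon 0.62 and 0.41 (adjusted p = 0.000375 by the same exact test). The Ehmt2 exon had 0.23 and 0.42 (exact test, adjusted p = 6.19e-08), a difference of -0.19 beside -0.10 under triple knock-down. The Mfge8 exon had 0.04 and 0.20 (exact test, adjusted p = 5.73e-09). In these 4 exons the lines differed in the same direction with and without siRNA. The exons of Lmo7 (0.73 in TKO, 0.72 in WT), Rbm27 (0.74 in both) and Tjap1 (0.58 and 0.61) had nearly equal levels in the untransfected lines. The Depdc1a exon was at or near full inclusion there (1.00 and 0.99), so its levels cannot show a difference: its reads were 983 and 0 in TKO cells and 921 and 5 in WT cells, a log2 odds ratio of 3.55 beside 3.25 under triple knock-down.

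Zelen's exact test asked directly whether the odds ratio between the lines differed between the 2 pairs of libraries. Of 4344 exons 117 did at an adjusted p of at most 0.05 (2.69%), and among the called exons 6 of 20 did. The called exons were chosen for their odds ratio in the triple knock-down libraries, and the test uses the same reads, so this count is raised by selection. These were Lmo7 (adjusted p = 4.39e-05), Rbm27 (0.0353), Tjap1 (0.00463), Prnp (0.012) and the 136-nt (6.3e-08) and 120-nt (0.0306) exons of Hnrnpa2b1, all by Zelen's exact test. The other 14 did not reach that threshold, which does not show that they were equal. For Immt the test could not reach it, since neither untransfected library had an inclusion read. For Prnp the untransfected level was 0.97 in TKO cells and 0.46 in WT cells, a wider difference of level (0.51) than under triple knock-down (0.15), although the odds ratio was smaller. The share of inclusion reads was high in both untransfected lines, with 1156 inclusion and 22 skipping reads in TKO cells and 180 and 7 in WT cells.

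Seen from the untransfected side, 349 of 7695 tested exons were called (4.54%), 244 of them higher (3.17%) and 105 lower (1.36%) in TKO cells. Of these, 207 were tested under triple knock-down, 151 of them higher and 56 lower in untransfected TKO cells. The direction was the same for 143 (69.1%, with equal levels counted as not the same), against 55.4% of all exons with a difference in both pairs. For 51 the direction was the same and the level differed by at least 0.1. Over all 4473 tested exons, 543 differed by that much in either direction. Under triple knock-down 7 (3.38%) were called, against 0.469% of all tested exons. The exons higher in untransfected TKO cells had a median difference of 0.04 under triple knock-down, beside 0.16 without siRNA, and the lower ones -0.04 beside -0.145. The untransfected medians come from the values that chose these exons and so are wider by selection. The untransfected libraries were deeper, with 25200437 event reads in TKO cells and 25941844 in WT cells.

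**Figure D4:**
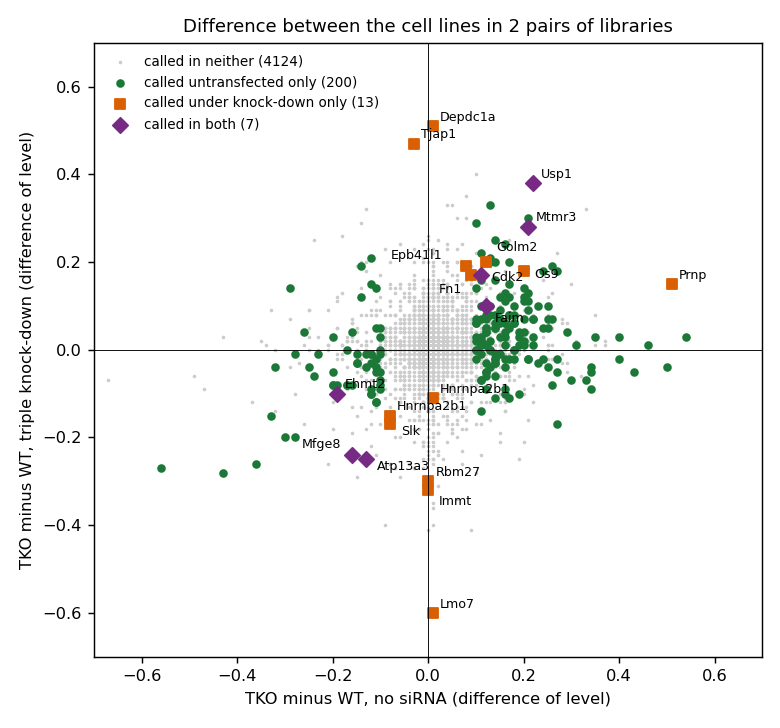
Difference of inclusion level, TKO minus WT, under triple HP1 knock-down (vertical axis) and without siRNA (horizontal axis) for the 4344 exons tested in both pairs of libraries; Adgrl1 was not tested without siRNA and is not shown. Purple diamonds are the 7 exons called in both, orange squares the 13 called under knock-down only and green points the 200 called without siRNA only, which lie mostly closer to 0 on the vertical axis.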

How the data were processed

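RNA-seq of 2 cultures per group (101-base read pairs with siRNA, 50-base single reads without) was pooled by the authors into 1 file per group, per the labels. TopHat2, Bowtie2 and build mm10 are named in the submitters' processing notes. Each deposited file lists MISO skipped-exon events with an inclusion level as a fraction (0 to 1) and its interval, and the deposited read counts per class, per the file headers. Every deposited event has at least 100 reads, so weakly expressed genes are missing; what confidence the interval stands for is unknown here. Library preparation is not described as stranded in the labels, so antisense reads cannot be separated.

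From these files, reads that support inclusion only or skipping only were compared per event by a two-sided Fisher's exact test (SciPy 1.17.1, pandas 2.3.3) with Benjamini-Hochberg adjustment over all 4473 events with at least 20 such reads in each file. A call needed an adjusted p of at most 0.05, a level difference of at least 0.1 and reads pointing the same way. Log2 odds ratios add 0.5 to each class and their 95% intervals, like limits from 0 reads (3 reads), cover counting error only. Read pairs carry no molecular identifiers. Ratios of reads have exact binomial intervals. Differences between the pairs of libraries were tested with Zelen's exact test. Where the files give no gene names, each event was given the RefSeq gene (GRCm38.p6) whose span holds it: 4374 tested events lie in 1 gene, 6 in more than 1 and 93 in none. Named exons were at most 14 called in each direction with intervals apart, 1 per gene, by size of difference, called list members (up to 12), the 3 exons per direction with the widest Zelen difference, and the most-read event of each HP1 and Dnmt gene. The members and the 14 gene lists were chosen with earlier results of these data known. Alternatives were other read minima, difference limits, read shares, the median odds ratio as null, intervals in place of the test, 1 event per exon, narrow intervals and the single knock-down libraries. The test was tried on simulated data. Exon sequences were not used here.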

Additional observations from a re-analysis of the deposited data

Results flagged for a closer look

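The difference between the lines was not the same with and without siRNA for 6 called exons by Zelen's exact test. The log2 odds ratio under triple knock-down minus that in untransfected cells was -4.91 for Lmo7, -4.70 for Rbm27, 3.19 for Tjap1, 3.87 for Prnp, and -1.18 and -0.43 for the 136-nt and 120-nt exons of Hnrnpa2b1. For Prnp the level was higher in TKO cells in both pairs. Its difference of level was smaller under triple knock-down (0.15) than without siRNA (0.51), unlike its odds ratio. The exons were chosen for their odds ratio under triple knock-down and the test uses the same reads, so selection favours such differences. Read length, transfection and knock-down differ together between the 2 pairs of libraries and cannot be told apart.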

How the results depend on the processing

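The number of calls, 21, moved with the rule. With a difference of at least 0.2 there were 11 (5 higher and 6 lower in TKO cells, 6 on the gene lists), and with no minimum 32 (19 lower). With intervals that do not overlap in place of the test there were 62 (26 higher, 36 lower, 25 on the lists). These counts follow from a wider or narrower rule. With the difference of read shares in place of levels there were 28 calls, 16 of them lower, and the cause was not tested. They held 19 of the 21. Fn1 (0.0967) and the 120-nt exon of Hnrnpa2b1 (-0.0968) fell just under the limit of 0.1. The other alternatives gave between 16 (at least 50 reads) and 22 (at least 10 reads) calls, but not always of the same exons. With at least 50 reads 14 of the 21 stayed called. Lmo7, Tjap1, Prnp, Os9, Epb41l1, Slk and Mtmr3 had too few reads to be tested there. With intervals at most 0.3 wide in both libraries there were 20 calls, 18 of them among the 21. Lmo7, Depdc1a and Tjap1, which had the widest differences, were left out by that limit. With HP1gamma knock-down of WT cells in place of triple knock-down, 2 named exons changed direction: Tjap1 had a difference of -0.03 and Adgrl1 0.19; the cause was not tested. No paired analysis was possible because the cultures of each group were pooled before deposit, and for the same reason no culture could be left out. Depth limits the comparison most in the 1442 exons with 20 to 49 reads, whose interval had a median width of 0.21.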
